A study of Mus musculus with 16 samples.

Results

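The comparison described here set synaptosomes (SYN) against total homogenate (TH) from the cerebral cortex of C57BL/6 mice aged 5 months. Synaptosomes are the pinched-off, resealed nerve endings, often with a patch of postsynaptic membrane attached, that are recovered when brain tissue is homogenised and fractionated by density. The homogenate was set aside before that enrichment step and holds the RNA of whole cells, nuclei included. The members were chosen by label and not by measured values: the 4 SYN and the 4 TH libraries at 5 months, 8 of the 16 libraries of the series, with every gene of the count table. Of 48709 genes in the table, 17374 passed a minimum on low counts and were tested, and 31335 did not. The other libraries are SYN samples from mice aged 3 weeks and 19 months. Replicates are labelled as biological replicates, and no source used here states their sex, whether animals were pooled, or a genotype beyond the strain. RNA was taken by acid phenol-chloroform, and 10 ng went into a strand-aware total-RNA library kit that removes 18S and 28S rRNA, so RNAs without a poly(A) tail were also counted.

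Neurons send messenger RNAs into axons and dendrites, where ribosomes translate them close to the synapse. Many other RNAs stay in the nucleus: unspliced introns, small nucleolar RNAs (snoRNAs, which guide the chemical modification of ribosomal RNA), small Cajal-body RNAs (scaRNAs, which guide modification of spliceosomal RNA) and retained long noncoding RNAs. Synaptic mitochondria carry their own genome and make their own rRNAs, tRNAs and mRNAs inside the organelle, while Y RNAs and 7SL RNA are small structured RNAs that work mainly in the cytoplasm, the former bound by Ro60 and the latter as the scaffold of the signal recognition particle.

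The results on small RNAs turn on the following genes, whose sequences are given as DNA letters, 5′ to 3′, from GRCm38. The first pair are the Y RNA genes Rny1 (chr6:47788069-47788180, minus strand) and Rny3 (chr6:47781624-47781725, plus strand), with the longest run they share, 12 bases, in capitals.
Rny1: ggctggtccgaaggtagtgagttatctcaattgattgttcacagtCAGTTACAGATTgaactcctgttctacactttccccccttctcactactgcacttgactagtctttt
Rny3: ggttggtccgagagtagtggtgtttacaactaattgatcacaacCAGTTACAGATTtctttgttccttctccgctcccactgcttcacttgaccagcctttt
The mitochondrial methionine tRNA gene mt-Tm (chrM:3845-3913, plus strand) is shown as a member of the small RNAs made in mitochondria, with its anticodon letters CAT in capitals.
mt-Tm: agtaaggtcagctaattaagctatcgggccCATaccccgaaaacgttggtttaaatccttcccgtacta
The nuclear guide RNAs are shown with the box letters that define their kind in capitals. Scarna13 (chr12:105031075-105031349, minus strand) and Snora21 (chr11:97781639-97781775, minus strand) carry ACA 3 bases before the 3′ end, as H/ACA guides do, and Snord15a (chr7:99482785-99482932, minus strand) carries TGATGA and CTGA, the letters of the C and D boxes.
Scarna13: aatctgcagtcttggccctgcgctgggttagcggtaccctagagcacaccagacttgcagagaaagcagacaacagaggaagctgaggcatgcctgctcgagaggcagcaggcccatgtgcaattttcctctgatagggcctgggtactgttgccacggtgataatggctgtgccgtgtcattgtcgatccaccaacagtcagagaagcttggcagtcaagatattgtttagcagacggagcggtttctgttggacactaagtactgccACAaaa
Snora21: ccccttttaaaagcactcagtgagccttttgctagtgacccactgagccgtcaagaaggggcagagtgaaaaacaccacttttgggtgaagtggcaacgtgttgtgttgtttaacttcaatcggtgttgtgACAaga
Snord15a: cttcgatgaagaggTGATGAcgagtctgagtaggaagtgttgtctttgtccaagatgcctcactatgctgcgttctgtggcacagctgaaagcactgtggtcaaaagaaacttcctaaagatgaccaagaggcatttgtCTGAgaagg

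Libraries held 11627513 to 19461220 counts, of which 7914269 to 14582450 lay outside the mitochondrial genome. Values for single genes are CPM, counts scaled to a common library size with TMM factors; TMM sets the bulk of genes level between libraries, so that the CPM of a library are not shares of its total. A gene is called higher or lower where edgeR's quasi-likelihood test gave a Benjamini-Hochberg adjusted p under 0.05. By that rule 50.1% of the genes tested were called: 4248 genes (24.5% of those tested) were higher in SYN and 4456 (25.6%) were lower, and for 47.9% of the tested genes the 4 SYN and the 4 TH values did not overlap at all. Without SYN replicate 4, a library that stood part of the way towards TH (values given further on), 4199 genes (23.4%) were higher and 5191 (28.9%) lower. Among the 13661 tested protein-coding genes, 3700 (27.1%) were higher and 2756 (20.2%) lower, with a median log2 fold change of 0.02. Upper-quartile scaling in place of TMM lowered the median log2 fold change of all tested genes by 0.14 and gave 3367 higher and 5525 lower calls, so that 37.9% of the calls were higher in place of 48.8%. Directions of small changes are therefore relative to the scaling.

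Most noncoding classes with nuclear functions took smaller shares of the counts in SYN, and RNAs of the mitochondrial genome took larger ones. Protein-coding genes took 52.7 ± 4.47% of all counts in SYN and 69.0 ± 1.49% in TH (SD, n = 4 each). Long noncoding RNAs made up 0.567, 0.653, 0.678 and 1.22% of all counts in SYN replicates 1 to 4, and 5.17, 5.28, 4.87 and 4.32% in TH. The highest SYN library was thus well under the lowest TH library (0.781 ± 0.3 against 4.91 ± 0.429%, mean ± SD, n = 4 each). A two-sided exact permutation of the libraries gave p = 0.0286, which no comparison of 4 with 4 can go below, and an adjusted p of 0.04 over 14 classes. Malat1 alone held most counts of the class in each TH library, at 334880, 504795, 421947 and 463261 counts. In SYN it had 18583, 12668, 15206 and 80590 counts, and the share without Malat1 was not tested. In bulk RNA, fewer cells or nuclei and less RNA per cell or nucleus cannot be told apart.

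TEC genes, the GENCODE class of transcript models that await experimental support, took 0.0463, 0.046, 0.0558 and 0.135% of SYN counts and 0.702, 0.738, 0.711 and 0.72% of TH counts. Their mean share was 0.0707 ± 0.0428% in SYN and 0.718 ± 0.0153% in TH (n = 4 each, exact permutation p = 0.0286, adjusted p = 0.04). snoRNAs and scaRNAs together fell from 0.0853 ± 0.0197% in TH to 0.00875 ± 0.00387% in SYN, with the same exact p. The share of snRNAs, the RNAs of the spliceosome, was 0.00867 ± 0.00232% in SYN and 0.05 ± 0.00868% in TH, also without overlap and with the same exact p. The remaining small structured RNAs, which include 7SL, the Y RNAs and the RNA of RNase P, took 0.173 ± 0.0161% against 0.494 ± 0.0797% (exact permutation p = 0.0286, adjusted p = 0.04). Most counts of this class in TH fell on Rpph1, the RNA of RNase P, and the lower share in SYN rests on that gene. 7SL RNA and Rny1 were higher in SYN (values given further on), and the share without Rpph1 was not tested.

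RNAs of the mitochondrial genome moved the other way. Mitochondrial rRNAs held most of their counts, at 39.3 ± 4.24% of all counts in SYN and 19.2 ± 1.91% in TH (SD, n = 4 each, exact permutation p = 0.0286, adjusted p = 0.04). Mitochondrial mRNAs took 5.14, 4.18, 4.01 and 4.07% of SYN counts and 2.57, 2.59, 2.64 and 3.06% of TH counts (4.35 ± 0.534 against 2.71 ± 0.233%, n = 4 each, exact permutation p = 0.0286, adjusted p = 0.04), and all 13 were higher in SYN, with a median log2 fold change of 1.65. Mitochondrial tRNAs took 0.0344, 0.0295, 0.0296 and 0.0103% in SYN and 0.0118, 0.00522, 0.00606 and 0.0047% in TH. SYN replicate 4 lay below the highest TH library there, so the share did not pass the test with all libraries (exact permutation p = 0.0571) and reached the smallest possible p without that library (p = 0.0286). Because mitochondrial RNA is part of the total, the shares were also taken over the other counts alone: there long noncoding RNA took 1.37 ± 0.45% in SYN and 6.28 ± 0.396% in TH, and protein-coding genes 93.6 ± 0.482% and 88.4 ± 0.54% (n = 4 each, exact permutation p = 0.0286 for both).

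The share of miRNA precursor genes was higher in SYN, 0.15, 0.225, 0.243 and 0.183% against 0.0963, 0.131, 0.0878 and 0.0868% (0.2 ± 0.0419 against 0.1 ± 0.0207%, exact permutation p = 0.0286, adjusted p = 0.04). Among the 54 tested precursors 10 were higher and 33 lower, with a median log2 fold change of -2.82. The low-count minimum was reached by 52 of them in all 4 TH libraries and by 11 in all 4 SYN libraries. Those 11 counted 10 higher and none lower (median 1.8), but choosing them by their level in SYN favours higher values there. Most of the others passed through TH, which favours lower values in SYN, so neither count stands as support for a direction. The class holds the predicted gene Gm23935, named after its values were seen, with 2060, 2760, 2850 and 1940 CPM in SYN against 496, 708, 420 and 436 CPM in TH (log2 fold change 2.22, edgeR adjusted p = 1.95e-05). This gene held most counts of the class in every library: 22191, 31277, 29347 and 27118 in SYN, and 7702, 16630, 9249 and 11232 in TH. The higher share of the class in SYN rests on it, and the share of the other precursors was not tested. Mir433, also named after its values were seen, was at 0.279, 0, 0.873 and 1.07 CPM in SYN and 5.98, 4.26, 2.54 and 4.85 CPM in TH. Counts on precursor genes say nothing of mature miRNAs.

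**Figure D1:**
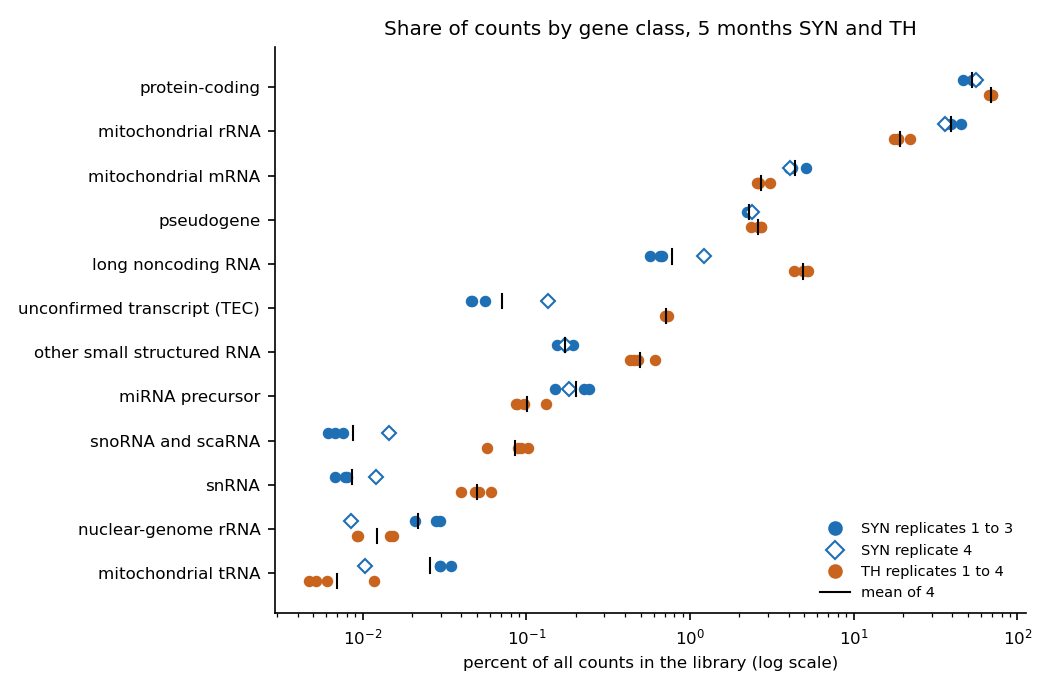
Percent of all counts in each library (log scale) by GENCODE gene class, one point per library, for the 4 SYN and 4 TH libraries at 5 months. Long noncoding RNA lies at 0.567 to 1.22% in SYN and 4.32 to 5.28% in TH, TEC genes at 0.046 to 0.135% and 0.702 to 0.738%, and mitochondrial mRNA at 4.01 to 5.14% and 2.57 to 3.06%.

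The low-count minimum limits what the counts of single genes show. Among 1023 tested long noncoding genes, 69 were higher and 431 lower (median log2 fold change -0.91, and -1.02 without SYN replicate 4). Among 1051 TEC genes, 15 were higher and 913 lower (median -3.14, and -4.25 without that library), among 82 snoRNA and scaRNA genes none was higher and 66 were lower (median -2.58, and -3.11), and among 33 snRNA genes 2 were higher and 24 lower (median -2.28, and -3.12). Many of these genes passed the minimum only through TH and so had to differ. Of the TEC genes, 75 reached it in all 4 SYN libraries, with 14 higher and 36 lower and a median of -0.72. Of the long noncoding genes 319 did, with 65 higher, 81 lower and a median of 0.05. Choosing genes by their level in SYN leans the other way, towards higher values. The median of all tested genes was -0.05, and it was 0.1 for those that reached the minimum in all SYN libraries. The 14 snoRNA and scaRNA genes that reached it in all SYN libraries still counted 12 lower and none higher, with a median of -2.36, and the 9 such snRNA genes counted 5 lower and 2 higher. Pseudogenes, mostly processed copies of mRNAs, counted 403 higher and 198 lower of 1346, at a median of 0.21, while their share of all counts was 2.29 ± 0.0693% in SYN and 2.59 ± 0.181% in TH and did not pass (exact permutation p = 0.0571).

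Fewer kinds of RNA were detected in SYN. With each library thinned to the same 7914269 counts outside the mitochondrial genome, 19248 ± 658 genes had a count in SYN and 24269 ± 882 in TH (n = 4 each, exact permutation p = 0.0286). Before thinning the numbers were 19338 ± 758 and 25265 ± 1440. After thinning, protein-coding genes with a count numbered 14661 ± 173 and 15994 ± 306, long noncoding genes 1554 ± 126 and 2847 ± 275, snoRNA and scaRNA genes 110 ± 23.1 and 341 ± 20. There were 109 genes with at least 10 counts in every TH library and none in any SYN library, of which 54 were TEC genes, 25 long noncoding and 2 protein-coding, and 71 were noncoding genes in an intron. No gene met the same criterion the other way round.

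Position relative to protein-coding genes separated the noncoding genes. Only protein-coding genes on the same strand were taken as hosts, so noncoding genes antisense to a protein-coding gene were counted as outside. A long noncoding, TEC, snoRNA or scaRNA, snRNA or miRNA precursor gene was placed in an intron where it lay within a host and touched none of its exons. With no minimum on counts, 2801 such genes lay in 1731 hosts. They took 0.111, 0.0962, 0.106 and 0.24% of the counts outside the mitochondrial genome in SYN replicates 1 to 4, and 0.941, 0.959, 0.938 and 0.957% in TH. The TH libraries were within a narrow band, and the SYN libraries were all far below it, with replicate 4 the highest.

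The exons of the same 1731 hosts moved slightly the other way, 19.0 ± 0.222% of those counts in SYN and 17.5 ± 0.0958% in TH (n = 4 each, exact permutation p = 0.0286). Per 100 counts on host exons, SYN had 0.582, 0.502, 0.555 and 1.28 counts on noncoding genes within the introns, and TH had 5.4, 5.47, 5.35 and 5.41. The mean of 0.731 ± 0.371 in SYN was 7.4 times lower than the 5.41 ± 0.0494 in TH (n = 4 each, exact permutation p = 0.0286), and 9.9 times lower without SYN replicate 4. The number of these genes with any count was 697, 589, 629 and 1202 in SYN and 1951, 1968, 2107 and 2191 in TH. A count on such a gene may be a read from the unspliced RNA of its host, and these tables cannot tell the 2 apart.

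Of the 1104 intronic noncoding genes that were tested, 7 were higher and 999 lower, with a median log2 fold change of -3.17 (-4.33 without SYN replicate 4). For 1075 of them the host was tested too; the 608 hosts had a median of 0.09, and 1065 noncoding genes had a lower log2 fold change than their host. In 449 cases the noncoding gene was lower in SYN while the host was higher. The 1069 tested noncoding genes that lie outside protein-coding genes of their own strand had a median of -0.82, with 86 higher and 418 lower. Since the low-count minimum acts here as well, the 49 intronic genes that reached it in all SYN libraries are given apart. Of these, chosen by their level in SYN, 33 were lower and 7 higher, with a median of -2.28.

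Named host and guest pairs show the contrast within one transcription unit. Snord15a lies in an intron of Rps3, a protein of the small ribosomal subunit. Snord15a was at 4.37, 1.15, 1.84 and 7.29 CPM in SYN and 42.2, 37.3, 30.5 and 14.6 CPM in TH, with no overlap (log2 fold change -3.04, edgeR adjusted p = 0.00393). Rps3 was at 118, 123, 104 and 100 CPM in SYN and 51, 49.7, 56.4 and 47.3 CPM in TH, higher in every SYN library (1.12 ± 0.0902 SE, adjusted p = 1.23e-07).

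Snora21 lies in Rpl23, a protein of the large subunit, and was at 16.2, 7.24, 7.95 and 24.1 CPM in SYN against 93.2, 59.4, 57.1 and 28.2 CPM in TH. Its highest SYN and lowest TH values were close to each other, and the call (log2 fold change -2.08, edgeR adjusted p = 0.0155) was lost with same-number libraries as pairs (adjusted p = 0.0735). Rpl23 rose by 0.96 ± 0.213 (SE, adjusted p = 0.00158). Snord17 fell by 2.45 on the log2 scale (adjusted p = 0.00458) within Snx5, a sorting nexin of endosomes, which rose by 0.61 (adjusted p = 0.000306).

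The same held for TEC genes inside long neuronal genes; the examples were named after their values were seen. Gm42583 lies in Kcnd2, which encodes the A-type potassium channel Kv4.2, and was at 2.23, 1.94, 2.04 and 5.43 CPM in SYN and 34, 36.2, 36 and 34.4 CPM in TH. Kcnd2 was at 115, 130, 137 and 98 CPM in SYN and 57.5, 63.6, 61 and 64.2 CPM in TH. The guest fell by 3.55 on the log2 scale (edgeR adjusted p = 2.29e-07) and the host rose by 0.96 (adjusted p = 1.57e-06). Gm45176 fell by 3.08 in Dlg2, the postsynaptic scaffold PSD-93, which rose by 0.63, and Gm42993 fell by 3.74 in Auts2, a regulator of neuronal transcription and of the cytoskeleton, which rose by 0.54 (adjusted p from 4.57e-06 to 0.00205 for the 4 genes). Peg13, an imprinted noncoding RNA within Trappc9, was one of the exceptions and rose by 0.61 ± 0.0799 (SE, adjusted p = 1.88e-05), from 118 to 138 CPM in TH to 175 to 209 CPM in SYN.

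**Figure D2:**
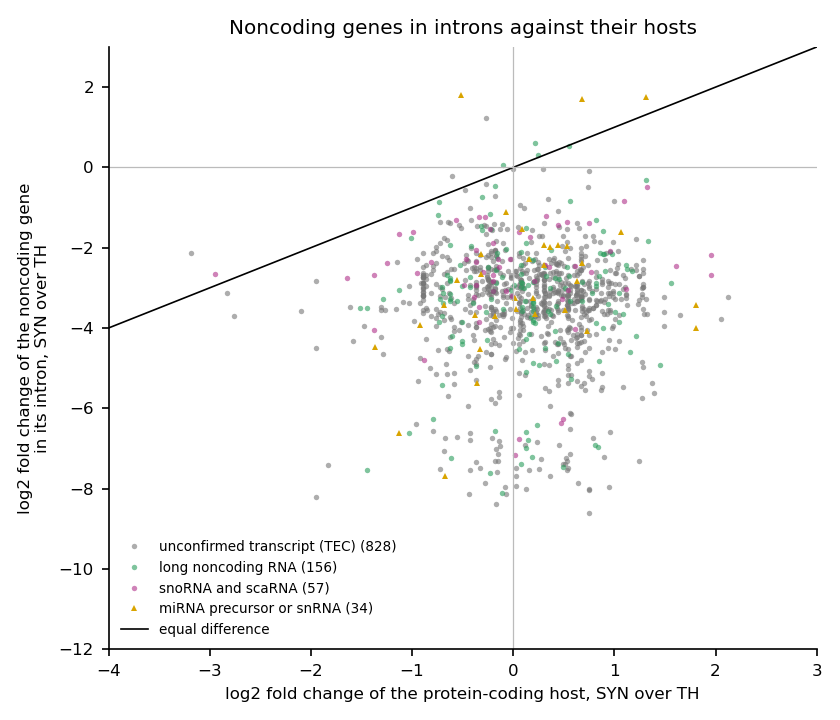
Log2 fold change (SYN over TH) of noncoding genes in introns (vertical axis) against that of their protein-coding hosts (horizontal axis), one point per tested pair, coloured by class, with the line of equal change. Of 1075 pairs, 1065 lie below the line; the median of the noncoding genes is -3.19 and that of the hosts 0.09.

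Several cytoplasmic and mitochondrial small RNAs were higher in SYN, among them Rny1, 7SL RNA and most tested mitochondrial tRNAs, and several nuclear ones were lower, among them Scarna13, Snord15a and Rpph1. Rny1 was at 192, 202, 166 and 53.2 CPM in SYN and 43.4, 15.4, 35.2 and 25.7 CPM in TH. SYN replicate 4 was the lowest of its group and still above every TH library (log2 fold change 2.37 ± 0.524 SE, edgeR adjusted p = 0.00965). Rny3, which shares the capitalised run with Rny1 and was named after its values were seen, was at 237, 281, 229 and 71 CPM in SYN and 54.2, 23.9, 102 and 83.8 CPM in TH. The groups overlapped through SYN replicate 4 and the difference did not pass (1.63, adjusted p = 0.062); without that library it did (1.9, adjusted p = 0.0247).

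7SL RNA is counted on Rn7s1 and Rn7s2, which are identical over their 300 bases, so reads cannot be assigned to one of them with certainty. Rn7s2 was at 269, 232, 258 and 177 CPM in SYN and 66.1, 56.5, 55.1 and 48.4 CPM in TH, with every SYN library above every TH library (2.05 ± 0.132 SE, adjusted p = 5.91e-08). Rn7s1 was at 457, 453, 441 and 299 CPM against 125, 203, 102 and 99.5 CPM (1.64, adjusted p = 0.00157).

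Of 15 tested mitochondrial tRNAs, 14 were higher in SYN and none lower, with a median log2 fold change of 2.25. The low-count minimum was reached by 9 of them in all TH libraries and by 13 in all SYN libraries. Some may thus have passed it only through SYN, which favours higher values there. mt-Tm, the methionine tRNA, was at 41.3, 34.4, 26.5 and 13.2 CPM in SYN and 7.21, 5.71, 5.41 and 4.07 CPM in TH (2.37 ± 0.33 SE, adjusted p = 0.000216). mt-Tp, the proline tRNA, was at 59.4, 64.5, 48.0 and 35.2 CPM against 8.56, 8.52, 10.3 and 12.3 CPM (2.37, adjusted p = 3.89e-07). For both, SYN replicate 4 was the lowest SYN library and lay above all TH libraries. The 14 tested rRNA genes of the nuclear genome counted 10 higher and 2 lower. The minimum was reached by 10 of the 14 in all TH libraries and by 8 in all SYN libraries. n-R5s194, a 5S gene, was at 22.7, 28.3, 29.0 and 8.29 CPM in SYN and 7.27, 4.3, 4.81 and 2.37 CPM in TH. These genes have many near-identical copies, so the counts of single copies are uncertain, and the share of the class did not pass (exact permutation p = 0.171).

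The nuclear guides went the other way in each library. Scarna13, a scaRNA within the noncoding gene Snhg10, was at 1.77, 0.706, 1.65 and 3.36 CPM in SYN and 18.5, 20.8, 26.0 and 19.0 CPM in TH (log2 fold change -3.45, adjusted p = 9.09e-07). Scarna2 fell by 2.45 (adjusted p = 3.76e-05) and Scarna6 by 4.04 (adjusted p = 0.000752), the latter with no count in SYN replicates 1 and 2. Rpph1, the RNA subunit of RNase P, which trims tRNA precursors in the nucleus, was at 910, 1110, 854 and 1230 CPM in SYN and 2500, 2900, 3860 and 2970 CPM in TH (-1.58, adjusted p = 4.07e-06). Rmrp, the related RNA of RNase MRP, was at 127, 126, 145 and 126 CPM in SYN and 287, 232, 156 and 110 CPM in TH. The groups overlapped and Rmrp did not pass (-0.58, adjusted p = 0.138); without TH replicate 4, the lowest TH library, it did (-0.78, adjusted p = 0.00658).

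The box letters shown above were looked for in all annotated snoRNA and scaRNA genes, on the gene's own strand. ACA 3 bases before the annotated 3′ end was present in 301 of 1558 of them (19.3%) and in 95 of 4150 other small RNA genes (2.29%). TGATGA followed by CTGA was present in 376 (24.1%) and in 29 (0.699%). Of 35 tested genes with the ACA letters, 31 were lower in SYN and none higher (median log2 fold change -2.45, and -2.78 without SYN replicate 4). Of 24 tested genes with the C and D box letters, 19 were lower and none higher (median -2.62, and -3.24). These counts hold genes that passed the minimum only through TH, and the difference between the kinds of guide was not tested.

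**Figure D3:**
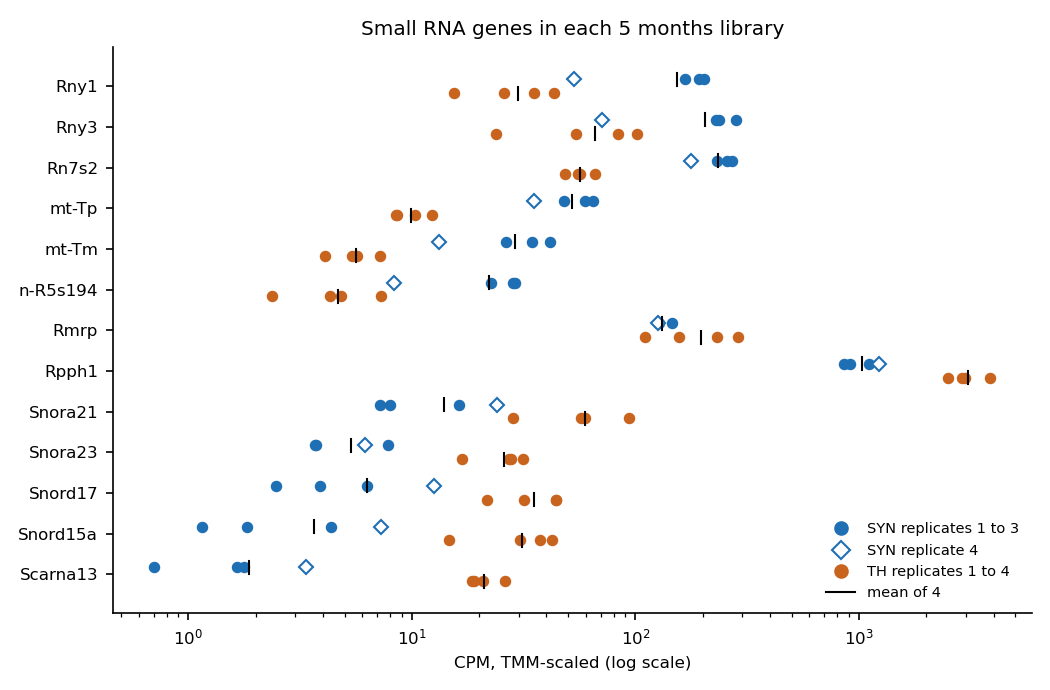
CPM (log scale) of small RNA genes in each of the 4 SYN and 4 TH libraries at 5 months, one point per library, with SYN replicate 4 as an open diamond and the mean of 4 as a bar. Rny1, Rn7s2 and mt-Tm lie higher in SYN (Rny1 53.2 to 202 against 15.4 to 43.4 CPM), Scarna13, Snord15a and Rpph1 lie higher in TH, and Rmrp overlaps.

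A list of nuclear, imprinted and other brain long noncoding RNAs held 18 tested genes: 13 were lower, 3 higher and the median log2 fold change was -1.57. Kcnq1ot1, an imprinted antisense RNA that silences its neighbourhood in the nucleus, was at 20.1, 9.0, 23.5 and 118 CPM in SYN and 421, 428, 435 and 513 CPM in TH. Its level in SYN replicate 4 was several times that of the other SYN libraries and still far under TH. Rian, from the imprinted Dlk1 region, fell by 1.80 on the log2 scale, and Snhg14, the long host of repeated snoRNAs in the Prader-Willi region, by 1.33. Snhg14 went from 855 to 906 CPM in TH to 292 to 441 CPM in SYN. Pantr1 rose by 0.73 ± 0.161 (SE, adjusted p = 0.00165). Outside the list, Ftx, from the X-inactivation centre, fell by 2.94.

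Noncoding hosts of snoRNAs moved in both directions. Of 13 tested hosts, 2 were higher and 4 lower, with a median of 0.05 (-0.18 without SYN replicate 4). Gas5, a spliced cytoplasmic host, was at 64.1, 63.5, 58 and 50.6 CPM in SYN and 35.1, 34.5, 42.5 and 45.7 CPM in TH (0.58 ± 0.113 SE, adjusted p = 0.000594), and Snhg8 rose by 1.16 (adjusted p = 0.000964). Snhg11, annotated as protein-coding in this release though known as a brain noncoding RNA, was at 70.3, 62, 85.2 and 255 CPM in SYN and at 877 to 954 CPM in TH, a fall of 2.95 on the log2 scale.

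SYN replicate 4 stood apart from the other SYN libraries across genes. Its place was measured on genes that differed by at least 1 log2 unit between TH and the 3 other SYN libraries: over 3369 lower genes it lay a median of 19.8% of the way towards TH, and over 1443 higher genes 22%. The other libraries, measured in the same way, lay between -5.8 and -3.76% on the lower genes and between -7.53 and 2.71% on the higher genes. Its summed endothelial markers were 63.9 CPM against at most 28.7 CPM in the other SYN libraries, its choroid plexus and ependymal markers 764 CPM against at most 180 CPM (38.7 to 3080 CPM in TH, with no member called), and its haemoglobins 25.2 CPM against at most 14.5 CPM. Whether it holds homogenate RNA was not tested. Several genes lower in SYN had a more negative value without it: the log2 fold change went from -3.37 to -4.7 for Kcnq1ot1, from -4.04 to -5.76 for Scarna6, from -3.04 to -3.68 for Snord15a, from -2.45 to -3.08 for Snord17, from -2.95 to -3.68 for Snhg11, from -2.93 to -3.55 for Mir433, from -3.08 to -3.67 for Gm45176, from -3.74 to -4.74 for Gm42993 and from -2.73 to -4.36 for Adcy4. Others hardly moved, such as Scarna2 (-2.45 to -2.43) and Pcdhgb4 (-1.22 to -1.17). No gene called with it reversed its direction without it among the 148 genes followed across settings.

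Features of the mature mRNA also varied between the fractions. For each of the 13661 tested protein-coding genes 1 GENCODE transcript was taken, and the genes were cut into quintiles by a feature. The mean log2 CPM of the top quintile minus that of the bottom quintile gave a contrast for each library. GC content of the transcript showed the widest difference: the contrast was -0.171, -0.074, -0.12 and -0.199 in SYN and -0.55, -0.54, -0.589 and -0.834 in TH. It thus differed by 0.49 on the log2 scale, without overlap (exact permutation p = 0.0286, adjusted p = 0.0381 over 8 features). In the quintile with the highest GC content 1064 genes were higher and 293 lower, and in the lowest 466 were higher and 892 lower, with medians of 0.28 and -0.23. Across genes, which are not independent replicates, the Spearman correlation of GC content and log2 fold change was 0.251.

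Exon structure also differed. Genes with many exons were lower: the contrast by exon number was 1.7 ± 0.0648 in SYN and 1.97 ± 0.0276 in TH (SD, n = 4 each), a difference of -0.27, and the quintile medians ran from 0.20 (fewest exons) to -0.10 (most). Of the 404 tested protein-coding genes with 1 exon, 149 (36.9%) were higher and 38 (9.41%) lower, with a median of 0.33 against 0.01 for the rest. Genes whose summed exons much exceed their main transcript, which is the case where many alternative exons or retained introns are annotated, were lower too (difference in contrast -0.34, quintile medians from 0.13 to -0.21). Both differences had an exact permutation p of 0.0286 and an adjusted p of 0.0381.

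The lengths of both untranslated regions (UTRs) went with the fraction. The contrast by 3′ UTR length differed by 0.31 (1.92 ± 0.0524 in SYN and 1.61 ± 0.0348 in TH) and that by 5′ UTR length by 0.25 (0.86 ± 0.0431 and 0.6 ± 0.00443), each with exact permutation p = 0.0286 and adjusted p = 0.0381 (SD, n = 4). In the quintile with the longest 3′ UTRs 1039 genes were higher and 511 lower, and in that with the shortest 539 and 579. For coding length the difference was -0.02 and did not pass (exact permutation p = 0.486) nor did that for the genomic span of the gene (p = 0.971).

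Mean CPM moves with these features, and part of the picture depends on it. Genes in the top quintile of mean CPM had a median log2 fold change of 0.36 and those in the bottom quintile -0.34. Within quintiles of mean CPM, from lowest to highest, the top-minus-bottom difference by GC content was 0.49, 0.49, 0.46, 0.67 and 0.81, that by exon number -0.51, -0.66, -0.61, -0.64 and -0.46, and that by 5′ UTR length 0.16, 0.14, 0.11, 0.15 and 0.14. The difference by 3′ UTR length shrank to -0.05, 0.10, 0.10, -0.01 and 0.13. Whole mature length gave a higher contrast in SYN over all genes (0.18, exact permutation p = 0.0286), but within quintiles of mean CPM it was negative in each (-0.28, -0.19, -0.15, -0.17 and -0.04). Within quintiles of GC content it was positive in each, from lowest to highest 0.21, 0.16, 0.27, 0.37 and 0.47. CPM is not corrected for length, so genes of like CPM differ in abundance where their lengths differ, and the sign for mature length depends on which measure is held fixed.

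**Figure D4:**
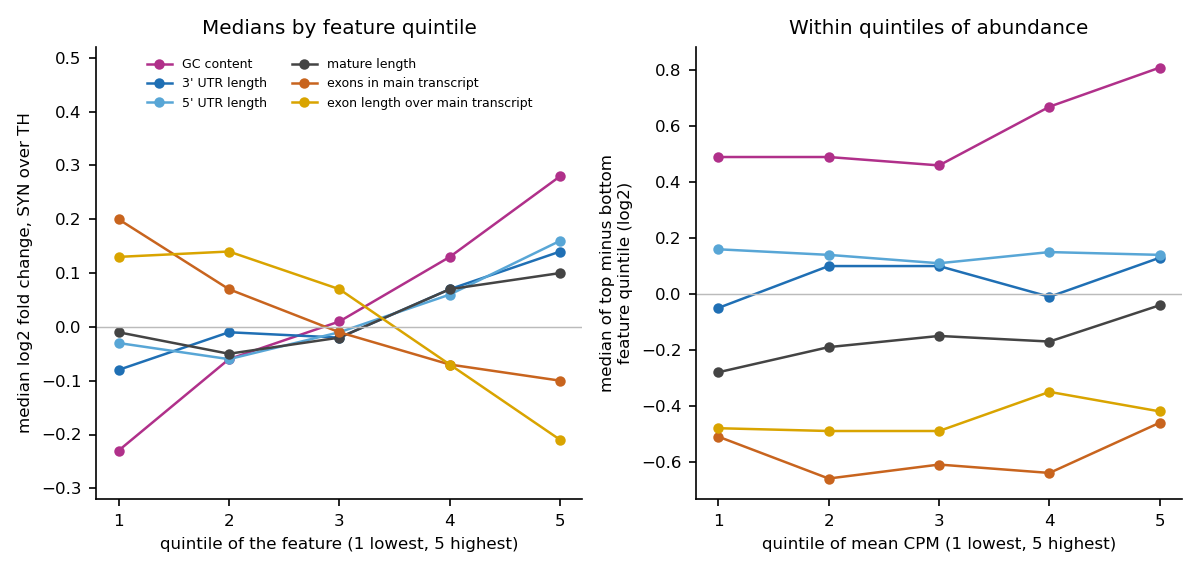
Left, median log2 fold change (SYN over TH) of tested protein-coding genes by quintile of GC content, exon number, UTR lengths, mature length, and summed exon length over main transcript length. Right, the median of the top feature quintile minus that of the bottom one within each quintile of mean CPM. GC content rises from -0.23 to 0.28 on the left and stays between 0.46 and 0.81 on the right; mature length turns negative on the right.

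Gene families were described with lists of members, each beside the protein-coding background of 27.1% higher and 20.2% lower with a median of 0.02. Of 68 lists with at least 5 tested members, 14 had a median log2 fold change of 0.5 or more and 8 had one of -0.5 or lower. Channels and pumps that set the membrane potential were high. Of 76 potassium channel genes 53 were higher and 5 lower (median 0.77). Kcna2, a Kv1 channel of axons, was at 607, 570, 637 and 581 CPM in SYN and 303, 284, 289 and 286 CPM in TH (1.04 ± 0.0687 SE, adjusted p = 1.65e-08). The glial inward rectifier Kcnj10 rose by 1.44. Kcnip4, an auxiliary subunit of Kv4 channels, fell by 0.89. The vascular channel Kcnj8 fell by 2.36 ± 0.687 (SE), on few counts: 0, 1, 4 and 5 in SYN and 16, 29, 27 and 26 in TH.

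Of 23 voltage-gated calcium channel subunits 16 were higher and 2 lower (median 0.80, and 1.03 without SYN replicate 4). The pore subunit Cacna1e (R-type) was at 1130, 1300, 1330 and 1110 CPM in SYN and 533, 567, 515 and 471 CPM in TH, and Cacna1i (T-type) rose by 1.71. The auxiliary subunits split: Cacnb3 rose by 1.12, while Cacnb2 fell by 0.76 and Cacnb4 by 0.38 (adjusted p = 7.4e-08, 0.000212 and 0.000793). Among 13 sodium-potassium and calcium pump genes 10 were higher and none lower (median 0.85). Atp2b2, a calcium pump of the plasma membrane, was at 1750, 1820, 1910 and 1570 CPM in SYN and 663, 636, 646 and 644 CPM in TH (1.45, adjusted p = 2.06e-09).

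Second-messenger enzymes differed by family. Of 9 adenylyl cyclases, which make cyclic AMP, 7 were higher and 1 lower (median 0.93). Adcy1, the calmodulin-stimulated cyclase, was at 2000, 1850, 1990 and 1570 CPM in SYN and 482, 413, 456 and 447 CPM in TH (2.04 ± 0.0892 SE, adjusted p = 5.11e-10), and Adcy5 rose by 1.92. Adcy4 fell by 2.73, from 2.06 to 4 CPM in TH to 0.0929 to 1.36 CPM in SYN. Of 20 phosphodiesterases, which break cyclic nucleotides down, 2 were higher and 5 lower (median -0.05): Pde4a rose by 0.64, Pde1a fell by 0.50 and Pde2a by 1.79.

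Of 27 subunits of heterotrimeric G proteins 14 were higher and 3 lower (median 0.48, and 0.28 against genes of like GC content), with Gng7 up by 1.70 and Gnai2 by 0.94 and Gnb4 down by 0.78. RGS proteins, which speed the return of G proteins to the inactive state, counted 3 higher and 8 lower of 18 (median -0.18, and 0.01 against genes of like GC content). Rgs10 rose by 1.37. Rgs11 was at 2.97, 2.82, 2.72 and 4.5 CPM in SYN and 11.5, 15.3, 13.7 and 15.2 CPM in TH (-2.08, adjusted p = 9.5e-07), Rgs9 fell by 1.06, and Rgs5, a known pericyte marker, fell by 2.2.

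Guidance families had medians above the background. Of 29 semaphorins and plexins 19 were higher and 2 lower (median 0.56); the receptor Plxna1 rose by 1.46 and Plxna4 by 1.3, while the ligand Sema3g, expressed by vessels, fell by 1.84. Of 20 Eph receptors and ephrins 12 were higher and 1 lower (median 0.53), with Efnb2 up by 0.99 and Epha4 by 0.79. Of 55 clustered protocadherins, which give neurons their surface identity, 26 were higher and 5 lower (median 0.43). Pcdhac2 was at 53.1, 65.7, 59.5 and 52.1 CPM in SYN and 19.4, 22.9, 20.7 and 19.5 CPM in TH, and Pcdhgc5 rose by 1.04, whereas Pcdhgb4 fell by 1.22. Integrins, taken by symbol, counted 6 higher and 3 lower of 23 (median 0.04), near the background. The lower ones include Itgb1bp2 (-4.81), taken in by its symbol, which encodes an integrin-binding protein and not an integrin. Members of a protocadherin cluster share constant exons, so reads there cannot be assigned to one member with certainty.

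The membrane skeleton and the motors differed within themselves. Of 15 spectrins, ankyrins and 4.1 proteins, which line the inner face of the membrane, 12 were higher and 1 lower (median 0.57). Sptb, a beta spectrin, was at 555, 477, 474 and 418 CPM in SYN and 224, 237, 207 and 191 CPM in TH, Epb41l1 rose by 1.39, and Epb41 fell by 0.57. Of 30 kinesins, which carry cargo towards microtubule plus ends, 13 were higher and 3 lower (median 0.44, and 0.28 without SYN replicate 4). Kif5a, the neuronal kinesin-1 heavy chain, had the highest log2 fold change of them (2.43). Kif5b, the broadly expressed kinesin-1 heavy chain, was at 1250, 1130, 1130 and 1010 CPM in SYN and 363, 356, 361 and 368 CPM in TH (1.64, adjusted p = 9.02e-10), and Kif1c rose by 1.33.

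Dynein and dynactin, the motor complex for the opposite direction, counted 4 higher and 5 lower of 23, with a median of -0.12. The dynactin subunit Dctn1 rose by 0.78 and the dynein regulator Nde1 by 1.25, and the cargo adaptor Bicd1 went from 94.8 to 103 CPM in TH to 47.2 to 52.2 CPM in SYN (-1.0, adjusted p = 7.4e-08). Of 23 microtubule-associated and neurofilament proteins 12 were higher and 2 lower (median 0.31), among them Map6, which stabilises microtubules against cold (1.56), Map4 (0.75) and the cytoskeletal linker Dst (0.68); against genes of like GC content the median was 0.08.

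Protein synthesis and breakdown differed. Of 76 cytosolic ribosomal proteins 32 were higher and 3 lower (median 0.47), and of 9 elongation factors 6 were higher and none lower (median 0.57). Rps15 was at 81.1, 85.3, 79.8 and 66.9 CPM in SYN and 21.6, 17.9, 18.1 and 16.9 CPM in TH, and Eef2, the translocase of elongation, at 693, 734, 713 and 597 against 285, 300, 335 and 309 CPM. Ribosomal protein genes have many processed copies in the genome, which makes the counts of the whole list uncertain. The same holds for single members such as Rpl12 (-1.77, 1.1 ± 0.653 against 3.8 ± 0.756 CPM). The median level of the list was 4.23 CPM, against 13.7 CPM for all tested protein-coding genes. Library headers carry the word unique, but how reads that match several places were treated is not stated. Of 53 initiation factors 17 were higher and 9 lower, with a median of 0.06.

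The 76 proteins of the mitochondrial ribosome, made in the cytosol, counted 4 higher and 13 lower (median -0.15), with Mrps9 down by 0.94 and Mrpl52 up by 0.93. Of 36 proteasome subunits 3 were higher and 13 lower (median -0.20); Psma1, of the core particle, fell by 1.05, and Psmc5, an ATPase of the cap, rose by 0.39. Of 30 ubiquitin-conjugating enzymes 5 were higher and 11 lower (median -0.28), Ube2r2 among the former (0.53). Of 20 subunits of the vacuolar proton pump 6 were higher and 7 lower.

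Nuclear-encoded subunits of the respiratory chain had medians nearer 0 than the 1.65 of the mitochondrial mRNAs; the difference was not tested. Of 36 complex I subunits 15 were higher and 3 lower (median 0.12), and of 15 complex IV subunits 7 were higher and none lower (median 0.23, and 0.39 without SYN replicate 4). ATP synthase counted 4 higher and 1 lower of 16 (median 0.20). Cox4i1 was at 267, 235, 220 and 202 CPM in SYN and 106, 95, 99.7 and 101 CPM in TH (1.2, adjusted p = 4.17e-08), Cox8a rose by 1.59 and Ndufb9 by 1.26. With each gene compared to others of like GC content, the median of complex IV was 0.53.

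Families of nuclear proteins differed. Those with medians near 0 were chromatin remodellers (10 higher and 13 lower of 38, median -0.01), Mediator subunits (4 and 8 of 30, -0.08), histone lysine demethylases and methyltransferases (8 and 12 of 32, -0.14), RNA polymerase II subunits (2 and 1 of 13, 0.16) and snRNP and SF3 proteins (3 and 4 of 34, -0.15). Of 351 Zfp genes, the zinc-finger proteins that mostly bind DNA, 49 were higher and 101 lower (median -0.35, and -0.21 against genes of like GC content). Zfp207 was at 37.9, 41.3, 37.7 and 40.7 CPM in SYN and 88, 90.4, 89.7 and 104 CPM in TH. Zfp831 and Zfp365 were among those that rose, by 1.70 and 1.44. Of 11 SR proteins, which direct splicing, 9 were lower and 1 higher (median -0.79).

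Srsf5 was at 24.3, 21.8, 22.5 and 23.9 CPM in SYN and 61.3, 72, 64 and 67.1 CPM in TH (-1.52, adjusted p = 7.75e-09), Srsf6 fell by 1.15 and Srsf11 by 0.86. Srsf4 was the one higher SR gene (0.35, adjusted p = 0.0141), a call lost under upper-quartile scaling (0.21, adjusted p = 0.112). Of 19 nucleoporins, the proteins of the nuclear pore, 10 were lower and 2 higher (median -0.61); Nup93 was at 11.6, 8.3, 9.7 and 15.1 CPM in SYN and 31.8, 36.6, 33.8 and 35.2 CPM in TH, and Nup210 rose by 0.48. Of 20 hnRNP genes, another family of nuclear RNA-binding proteins, 4 were higher and 9 lower (median -0.18). SR genes are annotated with retained introns and poison exons, and the counts do not separate spliced from unspliced RNA.

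**Figure D5:**
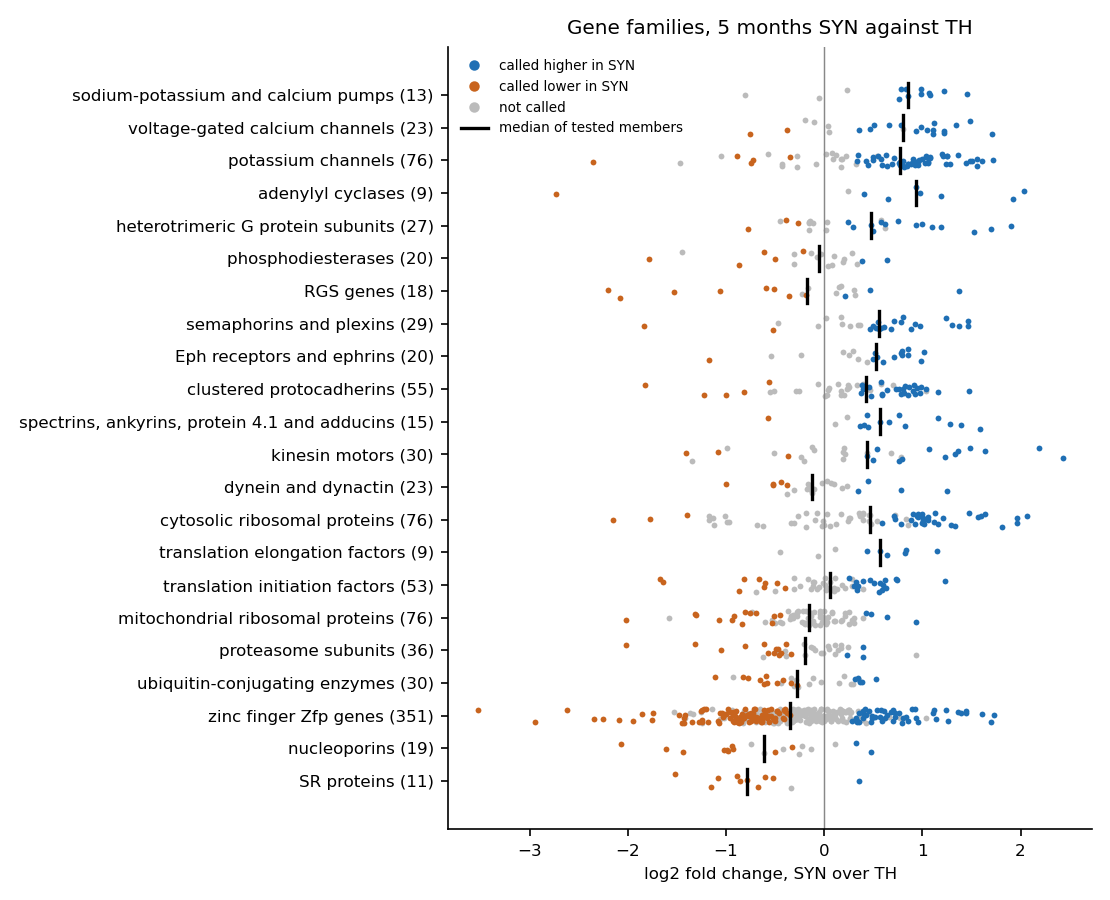
Log2 fold change (SYN over TH) of every tested member of each gene family, one point per gene, coloured by whether it was higher, lower or not called, with the median of each family. Adenylyl cyclases (median 0.93), pumps (0.85), calcium channels (0.80) and potassium channels (0.77) lie to the right of 0, and SR proteins (-0.79) and nucleoporins (-0.61) to the left.

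The genes at the extremes were taken by a fixed rule: called, without overlap, at least 5 CPM on average and with an established symbol. Rasl10b, a small GTPase of the Ras family (log2 fold change 2.68), Kif5a (2.43) and Dlgap3, a postsynaptic scaffold (2.34), headed the list. Ezr, which links membranes to actin and is abundant in the fine processes of astrocytes, was at 281, 232, 255 and 205 CPM in SYN and 51.1, 47.3, 36.6 and 62.8 CPM in TH (log2 fold change 2.30). Nsmf, the messenger protein Jacob that shuttles from synapse to nucleus, was at 516, 592, 610 and 510 CPM in SYN and 129, 126, 104 and 101 CPM in TH (2.28). Tmcc2, a protein of the endoplasmic reticulum, was at 328, 408, 387 and 314 CPM against 73.9, 73.1, 75.6 and 70 CPM (2.30). Adra2c, an adrenergic receptor, C1ql2, a secreted synaptic organiser, and Fibcd1, an acetyl-binding membrane protein, each rose by 2.26.

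Most of the protein-coding genes at the other extreme belong to blood vessels. Tek, the Tie2 receptor of endothelium, was at 0.65, 0, 0.097 and 2.29 CPM in SYN and 13.8, 7.66, 9.45 and 8.11 CPM in TH (-3.56, and -5.27 without SYN replicate 4). The log2 fold change was -3.44 for Ptprb (-4.53 without SYN replicate 4), -3.29 for Pecam1, -3.25 for Slco1a4, -3.2 for Vwf (-3.88) and -3.0 for Flt1 (-3.87), all genes of endothelium, and -3.12 for Myh11, the smooth muscle myosin (-3.99). Dpm1, a subunit of dolichol-phosphate mannose synthase, fell by 2.92 (-3.67 without SYN replicate 4) and belongs to no vascular list.

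Marker lists for the cell types of the cortex were summed to check the label of each fraction. All 12 tested endothelial markers were lower in SYN, with sums of 17.8 to 63.9 CPM against 204 to 325 CPM in TH, and 8 of 10 mural cell markers were lower, with none higher (51.3 to 67.3 against 111 to 199 CPM). Postsynaptic and dendritic markers counted 11 of 12 higher (16600 to 19100 against 6110 to 6910 CPM) and presynaptic markers 7 higher and 1 lower of 12. Glial markers were higher as well: 11 of 12 for astrocytes, with sums of 8390 to 9550 against 3680 to 4270 CPM, and 12 of 12 for microglia, with 283 to 334 against 132 to 143 CPM. Slc1a2, the glutamate transporter of astrocytes, was at 7140, 7030, 6660 and 6220 CPM in SYN and 2780, 2700, 3050 and 3300 CPM in TH (1.19 ± 0.0823 SE, adjusted p = 2.55e-08). Oligodendrocyte markers counted 5 of 10 higher and those of their precursors 6 of 8, with none lower in either list. No listed marker was at 0 in all SYN libraries, and the part of these cell types in the differences of other genes was not tested.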

How the data were processed

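Counts per gene for 8 libraries, 4 SYN and 4 TH at 5 months, were read from the deposited count table; per the submitters' processing notes, the authors used bcl2fastq 2.20.0.422, cutadapt 1.18, Trimmomatic 0.38 and featureCounts (Subread) with GRCm38.p6. The aligner is not given in the sources used here, nor are strandedness and annotation, so overlapping and antisense genes are uncertain. Classes, transcripts and sequences came from GENCODE vM21 on GRCm38 (48349 of 48709 genes matched).

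Genes were filtered with filterByExpr (minimum 0.612 CPM), TMM-scaled and tested with edgeR 4.0.16 (quasi-likelihood, robust; R 4.3.3), unblocked, with DESeq2 1.42.0 as an alternative; standard errors are the log2 fold change over the square root of F. Class shares, intronic sums and feature contrasts were tested per library by exact two-sided permutation of 4 against 4 libraries. In data simulated for this comparison, 200 of 16916 genes were changed. Of genes changed by 1 log2 unit 57.4% were recovered, and of those changed by 0.5, 18.3%, with 4.3 false calls on average. In the real comparison 50.1% of the tested genes were called. The Benjamini-Hochberg cut-off depends on how many genes differ, so these rates do not carry over to it. Named genes were a choice of those given by a rule: in each list, up to 3 called members per direction by adjusted p, and the 10 highest and 10 lowest protein-coding and 6 highest and 6 lowest noncoding genes among called genes of at least 5 CPM without overlap. Members and lists were chosen with earlier results of these data known. Bc1 and Rn7sk, also in the rule, were not tested here. Alternatives were other scalings, filters and tests, a replicate block, all 16 libraries, and leaving out each library. A few members of the gene lists are not reported here.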

Additional observations from a re-analysis of the deposited data

Results flagged for a closer look

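In groups of 4, a library was marked where its gap to the nearest other library exceeded the Dixon limit; 326 groups of values were looked at and 21 marked, and chance marks about 1 in 20. SYN replicate 4 holds 14 of them. It was the highest SYN library for Malat1 (5760 CPM), Snhg11 (255 CPM), Kcnq1ot1 (118 CPM), Ptprb (11.6 CPM), Ftx (11.1 CPM), Gm42583 (5.43 CPM), Rgs11 (4.5 CPM) and Adcy4 (1.36 CPM), all of them genes lower in SYN. It was also the highest in the share of counts on long noncoding RNA (1.22%), TEC genes (0.135%) and snoRNA and scaRNA genes (0.0145%), and in counts on noncoding genes in introns per 100 host counts (1.28). It was the lowest SYN library for Rn7s1 (299 CPM) and mt-Tt (4.93 CPM), both higher in SYN. In each of these it lay on the side of TH.

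The others were single values: Gng7 in SYN replicate 1 (164 CPM, the lowest), Rmrp in SYN replicate 3 (145 CPM, the highest), Scarna6 in TH replicate 1 (6.11 CPM, the lowest), Kcnq1ot1 and Zfp207 in TH replicate 4 (513 and 104 CPM, the highest), and, also in TH replicate 4, the contrasts by 3′ UTR length (1.66) and GC content (-0.83).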

How the results depend on the processing

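Counts outside the mitochondrial genome, 7914269 to 14582450 a library, limit what can be said of genes near the minimum. Leaving out each library in turn gave 3724 to 4199 higher and 3888 to 5191 lower genes, and differences (SYN minus TH) of -4.32 to -4.0 percentage points for long noncoding RNA, 18.1 to 21.1 for mitochondrial rRNA, 0.0162 to 0.0242 for mitochondrial tRNA, -0.342 to -0.282 for other small structured RNA, -0.086 to -0.0708 for snoRNA and scaRNA, -0.668 to -0.639 for TEC genes, and -4.86 to -4.6 intronic counts per 100 host counts. A test for folds over 1.5 left 1768 higher and 2370 lower genes. Same-number libraries correlated in their deviations by 0.0867, 0.0156, 0.0143 and 0.134, and libraries of different number by -0.09 to 0.0738. The labels do not state whether a shared number marks the same animal, so the main fit was unpaired. With a replicate block, 4152 genes were higher and 4402 lower. The exact test over the 4 pairs cannot go below p = 0.125, the value it gave for long noncoding RNA (-4.13), mitochondrial rRNA (20.1), snoRNA and scaRNA (-0.0766), TEC genes (-0.647), other small structured RNA (-0.321), the intronic counts (-4.68) and the length contrast (0.185). Without SYN replicate 4 the mitochondrial tRNA share differed by 0.0242 (exact permutation p = 0.0286). The length contrast was -0.017 by coding length (exact permutation p = 0.486), -0.045 by the exon length in the count table, an alternative chosen after seeing the data (p = 0.257), and 0.067 with at least 5 CPM (p = 0.0857), with a range of 0.165 to 0.201 over libraries left out; the cause was not tested. The gene span contrast, -0.005, ranged from -0.02 to 0.025 with a library left out and turned positive without SYN replicate 2 (0.006) and without TH replicate 4 (0.025). Of the 148 genes followed, none reversed in any setting; 25 were lost in the test for folds over 1.5. Rny3 passed with DESeq2 (1.58, adjusted p = 0.014) and in a fit of all 16 libraries (1.62, adjusted p = 0.0136). With genes centred on others of like GC content, 27 list medians moved by more than the spread between SYN libraries and 37 did not; with length centring 8 moved and 56 did not.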
